A study of Mus musculus with 4 samples.

Results

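The small leucine-rich proteoglycan genes described here are Dcn, Lum, Kera, Epyc, Aspn, Omd, Ogn, Bgn, Fmod and Prelp, and their chromatin accessibility was read from ATAC-seq, an assay whose transposase inserts sequencing adapters where DNA is open. The cells were dental mesenchyme, the tissue inside the tooth. They came from the incisors of untreated wild-type mice of the C57BL/6 strain, 4 weeks old, and the labels do not say how many animals were used. The 4 deposited samples were lanes of 1 library and shared 1 value per region, so there was no replicate and no contrast between conditions. A region was given to a gene when its midpoint lay nearest to one of that gene's protein-coding transcription start sites (TSSs; mm10, GENCODE vM21 basic), or when it overlapped the promoter window of 1 kb either side of a TSS. This rule gave the 10 genes 89 of 121574 regions, and these held 1054 of 2297894 reads.

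Small leucine-rich proteoglycans are secreted matrix proteins whose leucine-rich repeats bind collagen, and they set how thick collagen fibrils grow and how they are spaced. Many carry chondroitin, dermatan or keratan sulfate chains, and several also bind growth factors such as TGF-beta. The family is split into classes by sequence and gene structure. Dentin is laid down on a collagen matrix, predentin, in which decorin and biglycan are known components. Most of the genes lie in clusters, with Dcn, Lum, Kera and Epyc side by side on chromosome 10 and Aspn, Omd and Ogn side by side on chromosome 13.

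The promoters of the chromosome 13 cluster are shown because these neighbouring genes differed. Omd and Ogn had 46 and 5 promoter reads, and Aspn had no listed region in its promoter window. The Bgn promoter is shown because it alone of those searched held GC box letters. Each runs from 250 bases before to 50 bases after the RefSeq start on GRCm38.p6, plus strand: chr13:49582212-49582511 for Omd, chr13:49607765-49608064 for Ogn, chr13:49544193-49544492 for Aspn and chrX:73483351-73483650 for Bgn. Capitals mark exact matches, on either strand, to any of 15 motifs searched. In these windows they were NFAT (TGGAAA) at Omd, Ogn and Aspn, TATA box (TATAAA) at Ogn and Aspn, RUNX (TGTGGT) and TEAD (GGAATG) at Ogn, an E-box (CAGCTG) at Ogn and Bgn, and GC box (GGGCGG) at Bgn.
Omd promoter: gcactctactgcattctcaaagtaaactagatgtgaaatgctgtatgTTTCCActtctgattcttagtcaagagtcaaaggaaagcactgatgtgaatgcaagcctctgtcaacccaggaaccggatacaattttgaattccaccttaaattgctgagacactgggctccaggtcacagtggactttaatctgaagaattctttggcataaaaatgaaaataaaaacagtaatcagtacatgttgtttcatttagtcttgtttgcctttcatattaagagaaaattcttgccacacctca
Ogn promoter: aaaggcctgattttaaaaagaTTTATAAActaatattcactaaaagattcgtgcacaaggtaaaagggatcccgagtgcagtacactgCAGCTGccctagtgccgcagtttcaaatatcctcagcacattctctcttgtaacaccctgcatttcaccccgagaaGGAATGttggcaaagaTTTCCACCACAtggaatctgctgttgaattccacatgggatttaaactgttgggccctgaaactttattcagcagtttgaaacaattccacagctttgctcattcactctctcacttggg
Aspn promoter: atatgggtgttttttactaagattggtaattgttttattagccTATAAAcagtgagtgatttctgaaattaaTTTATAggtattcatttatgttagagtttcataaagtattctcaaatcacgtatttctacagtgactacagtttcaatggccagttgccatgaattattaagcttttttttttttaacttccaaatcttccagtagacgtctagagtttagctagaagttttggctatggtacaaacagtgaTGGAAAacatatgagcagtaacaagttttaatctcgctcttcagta
Bgn promoter: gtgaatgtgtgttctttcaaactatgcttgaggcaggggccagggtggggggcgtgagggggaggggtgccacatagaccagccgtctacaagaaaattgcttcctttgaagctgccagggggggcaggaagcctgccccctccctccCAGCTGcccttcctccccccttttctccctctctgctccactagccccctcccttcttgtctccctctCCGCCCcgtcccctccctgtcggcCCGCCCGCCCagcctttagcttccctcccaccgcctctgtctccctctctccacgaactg

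The regions away from promoters with the most reads at Dcn, Lum and Fmod are shown next, since they took 155 and 72 of the 468 Dcn reads, against 19 at its promoters, and about as many reads as the top promoter region at Lum (33 and 35) and Fmod (22 and 22). Up to 300 central bases are given on the plus strand of GRCm38.p6: chr10:97313293-97313592 lies 166 kb upstream of Dcn, chr10:97492716-97493015 in Dcn intron 2 of 7, chr10:97576035-97576334 at 11.1 kb downstream of the Lum TSS, and chr1:134041685-134041901 in Fmod intron 2 of 2. Capitals mark matches to SOX (CTTTGT) and AP-1 (TGANTCA) in the upstream Dcn region, TATA box in the intronic one, RUNX, homeobox (TAATTA) and TATA box in the Lum region, and adjoining homeobox and AP-1 letters at Fmod.
Dcn region 166 kb upstream: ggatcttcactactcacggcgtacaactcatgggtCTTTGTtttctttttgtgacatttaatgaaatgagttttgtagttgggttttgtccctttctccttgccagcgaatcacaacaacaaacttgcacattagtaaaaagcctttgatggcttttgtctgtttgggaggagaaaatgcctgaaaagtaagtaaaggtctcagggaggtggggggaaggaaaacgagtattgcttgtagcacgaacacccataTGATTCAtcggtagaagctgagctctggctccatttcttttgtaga
Dcn intron 2 region: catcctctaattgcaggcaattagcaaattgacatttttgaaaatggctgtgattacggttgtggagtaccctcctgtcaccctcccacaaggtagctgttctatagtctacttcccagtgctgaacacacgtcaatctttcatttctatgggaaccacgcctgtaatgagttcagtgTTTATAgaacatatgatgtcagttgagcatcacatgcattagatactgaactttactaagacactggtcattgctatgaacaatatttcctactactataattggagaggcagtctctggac
Lum region 11.1 kb downstream: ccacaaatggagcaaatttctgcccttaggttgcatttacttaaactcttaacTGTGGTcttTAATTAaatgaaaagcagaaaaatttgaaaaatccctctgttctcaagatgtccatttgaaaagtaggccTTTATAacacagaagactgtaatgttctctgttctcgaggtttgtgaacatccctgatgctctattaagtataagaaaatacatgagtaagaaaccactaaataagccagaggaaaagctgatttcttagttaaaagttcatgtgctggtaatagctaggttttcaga
Fmod intron 2 region: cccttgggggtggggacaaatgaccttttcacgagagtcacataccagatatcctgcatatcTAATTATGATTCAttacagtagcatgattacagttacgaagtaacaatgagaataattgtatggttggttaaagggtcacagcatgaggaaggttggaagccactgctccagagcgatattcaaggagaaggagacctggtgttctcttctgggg

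The library itself set the precision. A region of any gene had a median of 7 reads, and 7101 of 121574 regions had 0. The sources used here do not say whether a count is a read or a fragment, or whether duplicates were removed; counts are called reads throughout. Intervals in brackets are exact 95% Poisson intervals, too narrow if mates or duplicates were counted separately; they hold for independent reads and leave out every error but counting. Among genes known to mark dental mesenchyme, 10 of 11 had a promoter region, with a median of 125 promoter reads, and all 5 odontoblast and pulp genes had one, with a median of 27.0. Promoter regions were also present at 4 of 5 endothelial, 5 of 6 dental epithelium, 4 of 5 chondrocyte and 3 of 4 tendon and ligament markers, with medians of 13, 23, 4 and 3 reads, and at 0 of 6 leukocyte markers. All these medians are over every gene of a list, with 0 for genes without a promoter region. By reads in all their regions, 9 of 11 dental mesenchyme and 4 of 5 odontoblast and pulp markers exceeded the median gene, and so did 2 each of the 6 leukocyte, 5 endothelial, 6 dental epithelium, 5 chondrocyte and 4 tendon and ligament markers. In these lists counts ran to 591 for leukocyte Ptprc and 1032 for endothelial Cdh5, each almost or wholly away from promoters, with 0 and 13 promoter reads. These genes stood out in their lists and were given 657 and 692 kb of sequence. The other leukocyte markers had 0 to 106 reads and the other endothelial markers 16 to 180. The part of other cells in the values below was not tested, and in a bulk library fewer cells with an open region and less openness per cell cannot be told apart.

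The 10 genes differed widely in reads. Dcn had 468 reads [427 to 512] in 29 regions, Prelp 164 [139.9 to 191] in 19, Fmod 134 [112 to 159] in 11 and Lum 111 [91.3 to 134] in 9. The other 6 genes had fewer reads than the median gene with a region, which had 92.0: Bgn had 53 [39.7 to 69.3], Omd 51 [38.0 to 67.1], Kera 29 [19.4 to 41.6], Aspn 26 [17 to 38.1], Epyc 13 [6.92 to 22.2] and Ogn 5 [1.62 to 11.7]. Thus 4 of 10 lay above that median, against 49.6% of the 17232 genes with a region. Between neighbours in this order the intervals stood apart only for Dcn over Prelp and for Lum over Bgn. Every other pair of neighbours, such as Prelp and Fmod or Kera and Aspn, had overlapping intervals. Overlap alone does not show that counts are alike, and the order within these pairs was not tested. Dcn kept the highest count under every assignment rule and minimum of reads tried, but its interval overlapped the next gene's in a pair of settings: it had 158 reads [134 to 185] against 140 [118 to 165] for Prelp with regions within 50 kb of a TSS, and 129 [108 to 153] against 106 [86.8 to 128] for Fmod with regions in the gene body or 10 kb either side. Ranked by the reads of its largest region, 1 gene lay above the median, and per kilobase of open region 2 did.

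**Figure D1:**
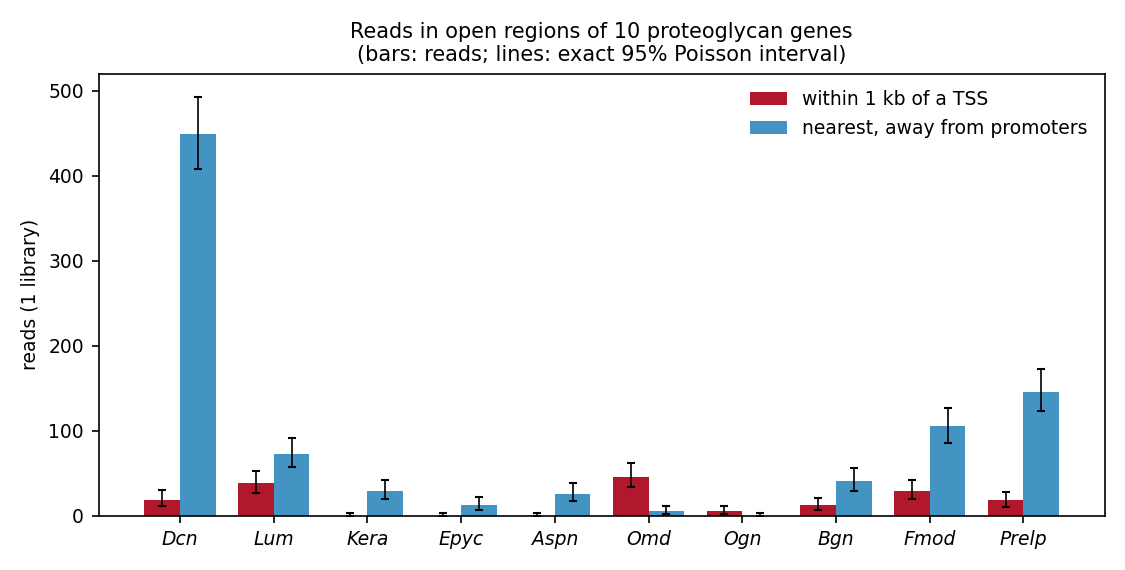
Reads per gene in 1 ATAC-seq library (y axis) for the 10 proteoglycan genes (x axis); red bars are regions within 1 kb of a TSS, blue bars the gene's regions elsewhere, and lines are exact 95% Poisson intervals. Dcn reaches 449 reads away from its promoters against 19 at them, while Omd has 46 at its promoters and 5 elsewhere. Values of 0 stand for genes with no listed region of that kind, so their lines do not rest on counted reads.

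A promoter region was present at 7 of the 10 genes, against 64.6% of all protein-coding genes. None was listed at Kera, Epyc and Aspn. Reads were summed over listed regions only, so a promoter count of 0 for a gene without one does not show that no reads fell there. Omd had 46 promoter reads [33.7 to 61.4], Lum 38 [26.9 to 52.2], Fmod 29 [19.4 to 41.6], Dcn 19 [11.4 to 29.7], Prelp 18 [10.7 to 28.4], Bgn 12 [6.20 to 21] and Ogn 5 [1.62 to 11.7]. None of these 7 reached the median of 67.0 reads of genes with a promoter region, a value that 49.9% of such genes exceed. The window's edge fell between weak regions: one of Fmod with 7 reads reached in at 913 bases from the TSS, and those of Dcn with 2 reads and Aspn with 5 reads began at 1052 and 1355 bases.

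Most reads of the family lay outside its promoter windows. By region midpoint, 15.2% of the members' reads lay within 1 kb of a TSS, 21.3% at 1 to 10 kb, 31.9% at 10 to 50 kb and 31.7% beyond 50 kb, whereas over all regions the shares were 50.5%, 9.73%, 18.6% and 21.1%. Without Dcn the members' shares were 24.1%, 34.6%, 37.2% and 4.10%, so the share beyond 50 kb was then below that of all regions, and Dcn held all but 24 of the 334 reads there. Promoter regions took 15.8% of the members' reads, and 25.3% without Dcn, which alone held 468 of the 1054. The region with the most reads lay away from the promoters in 6 of 10 genes, against 32.9% of the 17162 genes for which this could be scored. For Kera, Epyc and Aspn this was fixed beforehand, since they had no listed promoter region. The others of the 6 were Dcn, Bgn and Prelp, among the 7 genes with one. Genes without a promoter region are also among the 17162. Fmod, counted outside the 6, had 22 reads both at its promoter and in intron 2. Of the 89 regions 33 had at least 10 reads, against 39.0% of all regions, and 7 had 0.

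Among the class I genes, Dcn encodes decorin, which carries a chondroitin or dermatan sulfate chain and limits the sideways fusion of collagen fibrils. Its region with the most reads, chr10:97312902-97313985, was intergenic, 166 kb upstream of the TSS and 1084 bases wide, and had 155 reads [132 to 181]. That put it at the 99.8th percentile of the 97141 regions away from promoters, and its interval did not overlap that of both Dcn promoter regions together, with 19 reads. The nearest annotated start of any kind, that of the pseudogene Gm18515, lay 71.0 kb away, and the nearest in RefSeq, that of the noncoding RNA gene Gm34044, 77.1 kb. The next coding gene upstream, Btg1, an antiproliferative factor, had its nearest TSS 862 kb from that of Dcn, so the rule gave Dcn 475 kb of sequence. The region held 35 CpG dinucleotides, an observed to expected ratio of 0.60, at the 92.8th percentile of the 33719 regions away from promoters with at least 10 reads, whose median was 0.25; the 667 such regions with at least 100 reads had a median of 0.55.

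The second Dcn region, chr10:97492456-97493276 in intron 2 of 7 and 10.5 kb downstream of the nearer Dcn TSS, had 72 reads [56.3 to 90.7], the 98.5th percentile away from promoters, and a CpG ratio of 0.15. Between both lay a string of weaker intergenic regions, among them chr10:97376483-97376947 with 28 reads at 103 kb upstream, chr10:97457140-97457510 with 21 at 22.3 kb and chr10:97469520-97469988 with 19 at 9.86 kb. The Dcn promoter region chr10:97479370-97479672 had 14 reads [7.65 to 23.5].

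Bgn encodes biglycan, the closest relative of decorin, on chromosome X. Its main regions lay upstream, chrX:73474549-73475050 with 20 reads [12.2 to 30.9] at 8.80 kb and chrX:73476648-73476906 with 13 [6.92 to 22.2] at 6.83 kb. The promoter region chrX:73483523-73483713, in the untranslated part of exon 1 of 8, had 10 reads [4.80 to 18.4]. With 22.0 kb of sequence Bgn had 2.41 reads per kilobase, whereas Dcn, with 475 kb, had 0.985. Aspn encodes asporin, an aspartate-rich class I member known from the periodontal ligament. It had no promoter region, and chr13:49538707-49539120, 5.53 kb upstream, held 17 of its 26 reads [9.90 to 27.2 for the region].

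Among the class II genes, Lum encodes lumican, a keratan sulfate proteoglycan needed for clear corneas. Its top region, chr10:97565458-97565768, had 35 reads [24.4 to 48.7] and was centred 485 bases downstream of the GENCODE TSS, in the untranslated exon 1 of 3; the RefSeq start, 373 bases from the GENCODE one, lay inside it. An intergenic region downstream of the gene, chr10:97575956-97576415, had 33 reads [22.7 to 46.3], and the intervals of both overlapped. Counting only regions with at least 10 reads, Lum had 68 reads. Fmod encodes fibromodulin, which binds the same stretch of collagen as lumican. Its 11 regions had 0 to 22 reads: chr1:134037170-134037646 at the promoter and chr1:134041685-134041901 in intron 2 of 2 had 22 each [13.8 to 33.3], and chr1:134045911-134046219, also in intron 2, had 18 [10.7 to 28.4].

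Prelp encodes a heparin-binding member with a basic N-terminal stretch, and lies 116 kb from Fmod on chromosome 1, TSS to TSS. The promoter regions chr1:133921593-133921803 and chr1:133921133-133921592 had 10 and 8 reads. More reads lay upstream, in the gap toward Fmod: chr1:133961663-133962129 had 33 [22.7 to 46.3] at 40.5 kb, chr1:133941614-133942229 had 24 [15.4 to 35.7] at 20.5 kb and chr1:133978604-133979123 had 19 [11.4 to 29.7] at 57.4 kb. The first of these ended 33 bases from the start of the noncoding RNA gene Gm1627. When starts of noncoding genes also counted, Prelp had 36 reads, and it had 70 with the gene body and 10 kb either side.

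Omd encodes osteomodulin, a keratan sulfate proteoglycan of mineralised tissue that odontoblasts are known to make. It was the gene of the 10 with the most promoter reads, of which 44 [32.0 to 59.1] were in 1 region over the TSS, chr13:49582120-49582705. Its interval overlapped those of Lum and Fmod at their promoters. Kera encodes keratocan, best known from the cornea. It had no region within 4.09 kb of its TSS, and 21 of its 29 reads lay in chr10:97599243-97599776, 7.37 kb upstream and 2.31 kb from the start of the noncoding RNA gene 4930473O22Rik. With noncoding starts counted, Kera had 2 reads.

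The class III genes Epyc and Ogn had 13 and 5 reads. Epyc encodes epiphycan, known from growth plate cartilage. It had regions of 7 and 6 reads in intron 3 of 7, chr10:97656630-97656829 and chr10:97668646-97668911, at 9.64 and 21.7 kb downstream of the nearer TSS, and none within 9.54 kb. Its 13 reads became 33 when regions in its body or within 10 kb were counted whichever TSS was nearest, and 0 with a minimum of 10 reads. Ogn encodes osteoglycin, also called mimecan, a matrix protein of bone and other connective tissue. It had a single region, chr13:49607843-49608027 at its promoter, with 5 reads, which drops out under the same minimum.

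The chromosome 10 cluster, taken from 10 kb before Dcn to 10 kb after Epyc (chr10:97469609-97692454, 223 kb), held 25 regions and 302 reads [269 to 338], or 136 reads per 100 kb, against 84.3 over the genome. Most of these reads lay at its Dcn and Lum end. The Dcn body with 1 kb upstream had 108 reads and that of Lum 52, and the gap between Lum and Kera had 76. The Kera body had 2 reads, the 29.4 kb between Kera and Epyc had no region, and the Epyc body had 27. The longest stretch without a region, 45.5 kb, contained the Epyc start sites. The 500 kb before the cluster had 339 reads, 155 of them in the Dcn region 166 kb upstream, and the 500 kb after it had 20 reads in 3 regions. Ccer1, the next coding gene after Epyc, had no listed promoter region.

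**Figure D2:**
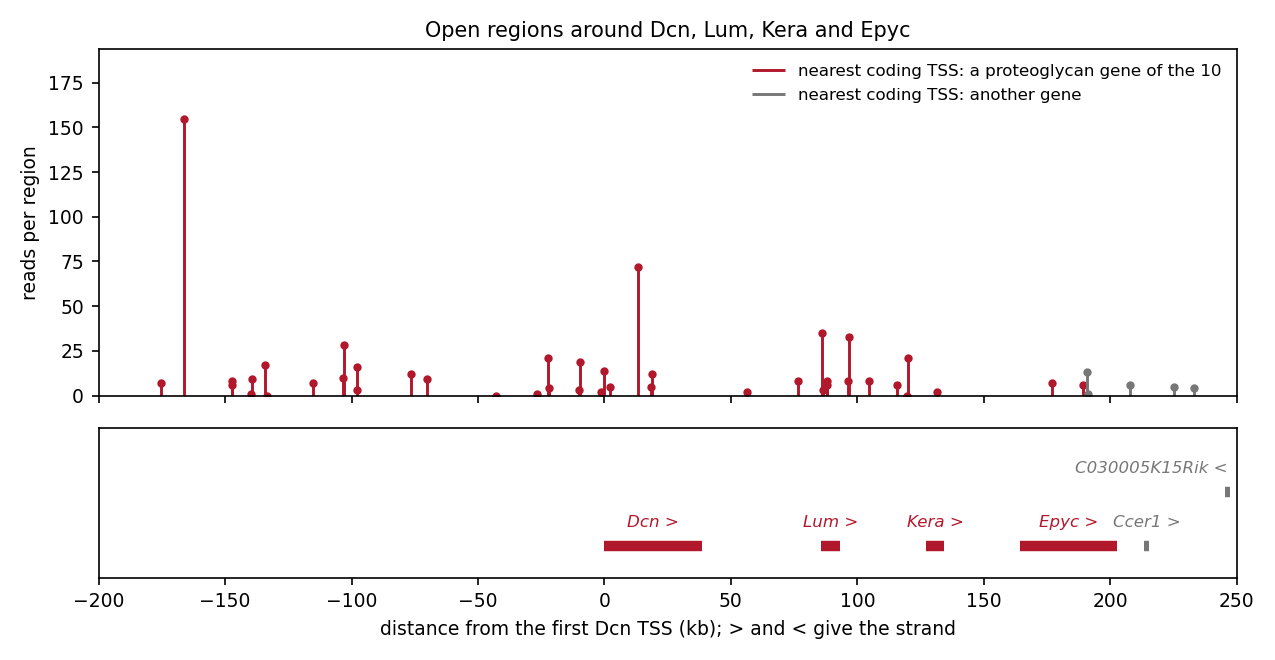
Reads per region (y axis, upper panel) and gene bodies (lower panel) against the distance from the first Dcn TSS in kilobases; red marks regions nearest to a TSS of the 10 proteoglycan genes and those genes, grey marks others. The 155-read region stands 166 kb upstream, the 72-read region inside Dcn, and the stretch from Kera to Epyc has no region.

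The chromosome 13 cluster was taken in the same way (chr13:49534443-49634501, 100.1 kb) and held 8 regions with 82 reads [65.2 to 102], or 82.0 per 100 kb. Its 3 genes lie inside intron 5 of 7 of Cenpp, a centromere protein gene on the opposite strand, so intronic regions of Aspn, Omd and Ogn are also intronic for Cenpp. Omd with its promoter held 51 of the 82 reads, against 5 for Ogn and 8 for Aspn, and no region lay in the gap before Omd or before Ogn. Regions of 5 reads each lay in intron 1 of Aspn, chr13:49545842-49546079, and intron 1 of Omd, chr13:49584438-49584597. The Omd promoter interval [33.7 to 61.4] stood above that of Ogn [1.62 to 11.7]. Aspn had no listed promoter region, so its promoter reads were not counted and could not be compared. The 500 kb before the cluster had 217 reads per 100 kb, and the 500 kb after it had 52.0, where the shared promoter region of Cenpp and Nol8 made up 177 of 260 reads. Ecm2, a class I relative next to Aspn, had 15 reads and no listed promoter region.

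**Figure D3:**
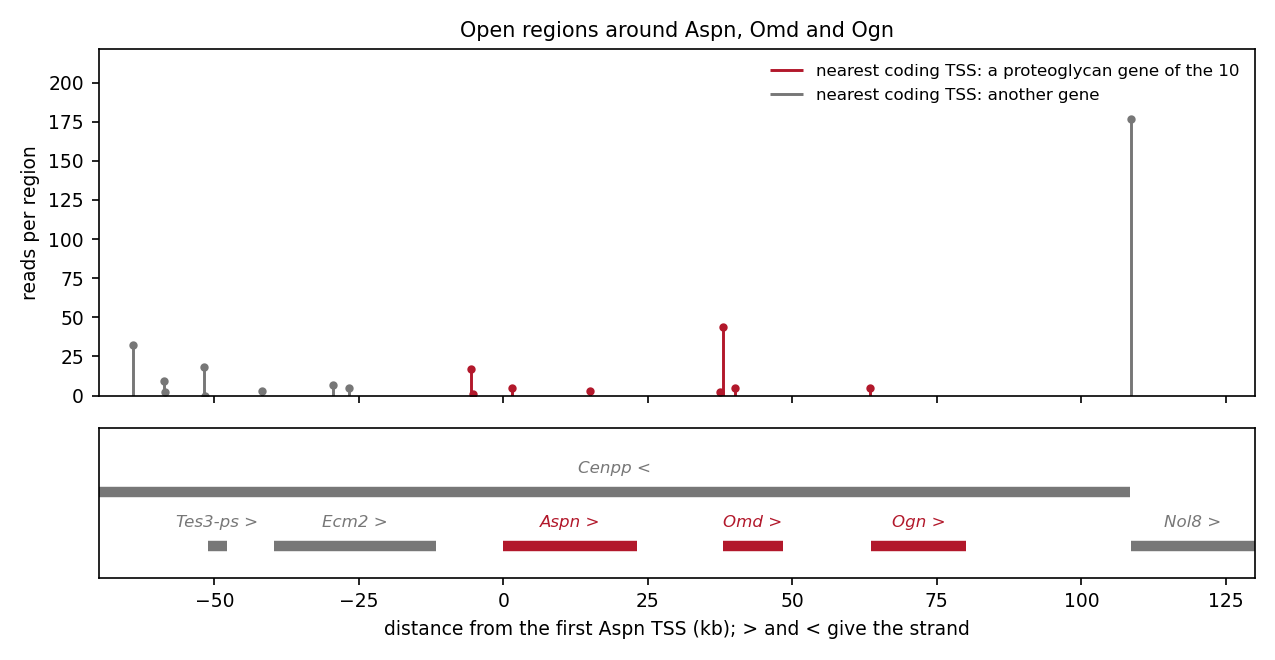
Reads per region (y axis, upper panel) and gene bodies (lower panel) against the distance from the first Aspn TSS in kilobases; red marks regions nearest to a TSS of the 10 proteoglycan genes and those genes, grey marks others. The Omd promoter region with 44 reads is the tallest within the cluster, and the 177-read region at the Cenpp and Nol8 starts lies beyond Ogn.

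All 10 promoters were poor in CpG. In the 500 bases either side of the first TSS the CpG observed to expected ratio was 0.12 at Kera, 0.15 at Epyc, 0.17 at Aspn, 0.19 at Lum, 0.20 at Omd and Prelp, 0.24 at Dcn and Fmod, 0.26 at Bgn and 0.29 at Ogn, whereas the median gene had 0.57. The 3 genes without a promoter region were those with the lowest ratios. GC content ran from 34.4% at Aspn to 56.8% at Bgn, and all but Bgn were below the median gene's 55.2%. Of the 4424 genes with ratios in the range 0.12 to 0.29, 22.6% had a promoter region, and those that did had a median of 18.0 promoter reads. Omd, Lum, Fmod and Dcn, 4 of the 7 members with a promoter region, were above it. A median has by definition about as many genes above as below. The Dcn interval [11.4 to 29.7] included this median. Since genes were matched on this ratio alone, nothing else about these promoters was held equal.

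**Figure D4:**
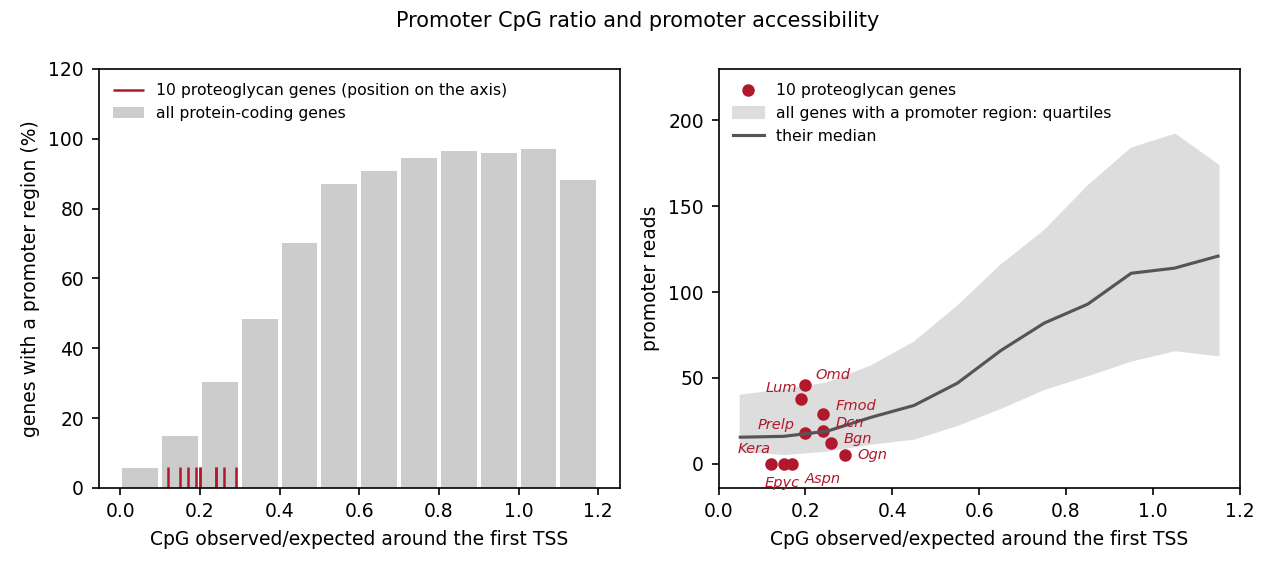
Left, share of protein-coding genes with a promoter region (y axis, %) by CpG observed/expected ratio (x axis), with red ticks at the ratios of the 10 proteoglycan genes. Right, promoter reads (y axis) by the same ratio for the 10 genes (red points), with the median (line) and quartiles (band) of all genes that have a promoter region. The 10 genes sit between 0.12 and 0.29, with Omd at 46 reads the highest. Points at 0 are genes with no listed promoter region.

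The length of sequence given to a gene also differed. The rule gave Dcn 475 kb, Fmod 78.9 kb, Prelp 64.6 kb, Lum 62.3 kb and the remaining 6 genes 22.0 to 44.6 kb, while the median gene with a region had 54.8 kb. Per kilobase of this sequence Prelp had 2.54 reads, Bgn 2.41, Lum 1.78, Fmod 1.70 and Omd 1.60, all above the median gene's 1.42. Dcn, at 0.985, Kera, at 0.735, Aspn, at 0.669, and Epyc, at 0.291, were below it, and Ogn had the lowest value, 0.143.

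**Figure D5:**
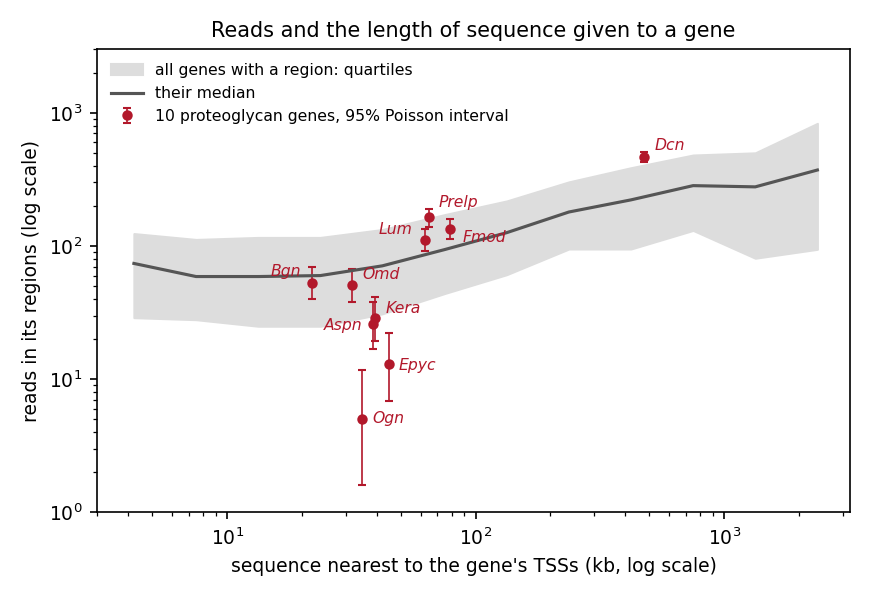
Reads in a gene's regions (y axis, log scale) against the length of sequence nearest to its TSSs (x axis, kb, log scale); red points are the 10 proteoglycan genes with exact 95% Poisson intervals, and the line and band are the median and quartiles of all genes with a region. Dcn lies at 475 kb with 468 reads, and Ogn at 35.0 kb with 5 reads is the lowest point.

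Motif letters were counted in the central 200 bases of regions with at least 10 reads, on both strands. Of the 27 such member regions away from promoters, 7 (25.9%) held RUNX letters, against 19.2% of 33719 regions away from promoters in all. NFAT letters were also in 7 (25.9%), against 20.8%, SOX letters in 4 (14.8%), against 17.8%, AP-1 letters in 2 (7.41%), against 6.90%, homeobox letters in 2 (7.41%), against 13.9%, and TEAD letters in 3 (11.1%), against 13.7%. TATA box letters were in 4 (14.8%), against 8.58%, E-box CAGCTG in 4 (14.8%), against 14.8%, E-box CATCTG in 2 (7.41%), against 17.1%, and GC box in none, against 9.53%. CTCF, NFI, EBF, CArG and SMAD (GTCTAGAC) letters were in none of the 27, against 1.03%, 0.0326%, 0.703%, 1.11% and 0.261%. With 27 regions from 7 genes, 1 region more or less moves such a share by several percentage points, and matches to short words do not mark bound sites. Read over its whole 1084 bases, the Dcn region 166 kb upstream held 4 matches to SOX and 1 each to AP-1, NFAT and E-box CAGCTG. The whole intron 2 region held 3 to homeobox, 2 to RUNX and 1 each to TEAD, NFAT and TATA box.

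In the 300-base promoters, available for 8 of the 10 genes, NFAT letters were in those of Kera, Aspn, Omd and Ogn, against 19.4% of 16515 coding genes and 26.0% of the 3210 with like CpG ratios. RUNX letters were in Epyc and Ogn (15% and 20.5%), and TATA box letters anywhere in the window in Aspn and Ogn (12.9% and 22.4%). No member had TATA box letters on its own strand at 20 to 40 bases before the start, where 2.75% and 5.89% of genes had them. GC box letters were in Bgn alone, 3 matches of which 2 overlap by 2 bases, against 47.9% of all promoters and 13.9% of those with like CpG ratios. E-box CAGCTG was in Ogn and Bgn (15.4% and 18.4%), SOX in Kera (16.9% and 23.9%), TEAD in Ogn (13.1% and 17.1%) and E-box CATCTG in Fmod (14.5% and 20.8%).

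The 10 core protein genes had a median of 52.0 reads, against 26.5 for 8 further family members of classes I and III to V and 92.0 for all genes with a region. Both family lists had a median CpG ratio of 0.20. Of the 8 further members 6 had a promoter region and 3 had more reads than the median gene, with Tsku, a secreted signalling inhibitor, highest at 248 and Podn lowest at 10. Fibrillar collagens, the main binding partners, had a promoter region at 9 of 9 and more reads than the median gene at 5 of 9, from Col1a2 with 565 reads to Col5a3 with 39. Collagen-associated genes had both at 5 of 5, from Col12a1 with 291 to Col6a1 with 104. Over all genes, 64.6% had a promoter region, and 49.6% of genes with any region had more reads than the median. The collagen lists had medians of 187 and 156 kb of sequence per gene. The 10 genes had 42.0 kb and the 8 further members 46.6 kb. Per kilobase of this sequence, 4 of 9 fibrillar and 1 of 5 collagen-associated genes exceeded the median gene. So did 5 of the 10 genes and 2 of the 8 further members.

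Genes of enzymes that build the sugar chains had a promoter region throughout. Over all protein-coding genes 64.6% had one. That share was 94.4% at CpG ratios of 0.7 to 0.8 and 90.7% at 0.6 to 0.7. Of all genes with a region, 49.6% had more reads than the median gene. Of 22 genes for the linker and for chondroitin or dermatan sulfate, 22 had a promoter region and 16 had more reads than the median gene, from Dsel, a dermatan sulfate epimerase, with 668 reads to B4galt7, which adds the first galactose of the linker, with 27. Of 7 keratan sulfate enzymes, 7 had a promoter region and 5 had more reads than the median gene, from B4galt1 with 510 to B3gnt7 with 53. These lists had median CpG ratios of 0.72 and 0.65 and median promoter reads of 124 and 85.0, against 0.20 and 15 for the 10 core protein genes. The 15 is over all 10, with 0 for those without a promoter region. Of 25 other proteoglycan genes 23 had a promoter region and 18 had more reads than the median gene, from Gpc5, a glypican, with 910 reads to Esm1 with 2 among the 24 with a region; Ncan had none. Median sequence per gene was 79.6 kb for the chondroitin or dermatan list, 102 kb for the keratan list and 125 kb for other proteoglycans. Per kilobase of it, 14 of 22, 3 of 7 and 9 of 25 exceeded the median gene. The lists were compared as they stand, with no test. The parts of CpG content and of sequence length in the differences were not tested.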

How the data were processed

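Per the labels' protocols, reads in paired ends from a NextSeq500 were aligned to mm10 with BWA-MEM and peaks were called with MACS2; STAR 2.6.1d and Partek also appear, with no role given, in the submitters' processing notes. Read shifting, duplicate removal and the libraries on which regions were called are not given in the sources used here.

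The authors deposited a table of 121574 regions in CPM, to which 1 read had been added, and a shorter table of expected counts for 16382 regions. Reads were recovered as the CPM value divided by the column minimum, minus 1, and 99.9% were whole within 0.01. The largest difference from the shorter table, which covers 44 of the members' regions, was 0.00155 reads. Those 44 are the regions of Dcn, Lum, Kera and Epyc, so no region of the other members was checked in this way. The implied divisor was 20662737, and 1 read was worth 0.0484. The table holds 1 value column of no sample given here, and it was not used. The design assumed that lanes might have values of their own; they shared 1 name and 1 column.

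The 10 genes and all gene lists were chosen with earlier results of these data known. All 10 genes were named, each with its promoter region and its region with the most reads, together with the 5 regions with the most reads of each cluster, neighbouring genes as landmarks, and the highest gene and the lowest gene with a region of each list of relatives, partners and enzymes; markers are given by counts, and further regions and markers named were picked after their values were seen. Genes were protein-coding symbols of GENCODE vM21 basic (21827), promoters those of RefSeq on GRCm38.p6. Values are descriptions of 1 library: no test was made, and no p-value is given. Python 3.11.15, pandas 2.3.3, NumPy 2.4.6, SciPy 1.17.1, pysam 0.24.0 and Matplotlib 3.10.9 were used. The assignment, overlap and interval functions were tested on simulated data, and the motif functions were not. Alternatives changed the promoter window, the assignment rule, the minimum of reads, the scale and the cluster edges.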

Additional observations from a re-analysis of the deposited data

How the results depend on the processing

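No paired analysis was possible because all 4 lanes share 1 value column, and for the same reason leaving out a lane could not be run. Of the 10 genes, 4 lay above the median gene by summed reads, and 1 by the reads of the largest region and 2 per kilobase of open region. The chromosome 10 cluster, with 302 reads, had 261 without flanks, 340 with 50 kb flanks and 219 with a minimum of 10 reads. The chromosome 13 cluster, with 82 reads, had 64 without flanks, 274 with 50 kb flanks, which take in the promoter region of Cenpp and Nol8, and 61 with that minimum. Promoter regions were present at 7 genes, and at 7 within 500 bp, 8 within 2 kb and 6 with that minimum, while the share of all genes with one, 64.6%, was 63.2% within 500 bp, 67.0% within 2 kb and 58.3% with a minimum of 10 reads. Sums by gene stayed within their counting intervals for all 10 genes with a minimum of 5 reads. With nearest-TSS regions alone every sum was unchanged. Other settings moved sums out of these intervals: 5 of 10 with a minimum of 10 reads and 4 with the gene body or 10 kb either side. When noncoding starts counted 4 moved, and with regions within 50 kb of a TSS 1 did, that of Dcn. Counts under 10 reads, which hold for 56 of the 89 regions, limit any order among them. Epyc had 33 reads, against 23 for Kera and 26 for Aspn, with regions in the gene body or 10 kb either side, and Kera had the fewest, 2, when noncoding starts counted, so the lowest ranks depend on the assignment rule.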
